A study of Bos taurus with 18 samples.

Results

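The 3 genes described here are *HLA-DQA1* (ENSBTAG00000037605) and *HLA-DQB1* (ENSBTAG00000019588), named after the human genes for the alpha and the beta chain of an MHC class II molecule, and *IFI47* (ENSBTAG00000015727), an interferon-induced gene. They were taken by their identifiers from a table of 24616 genes. Ruminal papillae came from the ventral sac of 18 multiparous Holstein cows in lactation, 6 on each of 3 diets, with alfalfa hay (AH), corn stover (CS) or rice straw (RS) as the main forage, and the concentrate mixture and corn silage were common to all diets. Each library was the RNA of 1 cow, from papillae separated from the basal layer of the wall. The study was designed to compare the rumen epithelium of cows fed forages that differ in quality and particle size. The members were chosen because the paper lists *HLA-DQA1* and *HLA-DQB1* as differing between RS and each of the other diets, and *IFI47* between AH and CS, so values in those comparisons are given as a description, with no test.

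MHC class II molecules are pairs of an alpha and a beta chain that hold peptides of proteins taken up from outside the cell and show them to CD4+ T cells. They are made by dendritic cells, macrophages and B cells, and epithelial cells can make them when exposed to interferon gamma. Cattle differ from each other in the number and the alleles of their DQ genes. *IFI47* encodes a GTPase of the immunity-related family, whose genes are switched on by interferons and act against microbes inside cells.

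Expression was given in CPM, the reads of a gene scaled to the reads on all genes of the same cow. The reads behind the CPM could be recovered, since each value stood for a whole number of them, and 16099131 to 32252177 reads per cow lay on genes. With 3 reads as the most that a count of 0 allows, the limit of detection was 0.0930 to 0.186 CPM, and each of the 3 genes had at least 1 read in all 18 cows. All 3 passed the filter on low values (more than 1 CPM in 3 or more of the 6 cows on any diet), as did 13284 genes in all. Intervals of single cows are exact Poisson intervals at 95% and cover counting error only. Symbols could be paired with 73 identifiers, through the paper's own list of genes chosen on these cows. Of the 138 genes of the prepared lists of antigen presentation, interferon response and cell types, 2 had a symbol, the macrophage gene *AIF1* and the B cell and follicular dendritic cell gene *CR2*. The other class II genes, the interferon genes and the markers of squamous epithelium could therefore not be read from the table, and the labelled tissue was not checked by them. In tissue of mixed cells, fewer cells of a type and less RNA per cell cannot be told apart.

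In the RefSeq annotation of the bovine assembly ARS-UCD2.0, 5 DQ genes stand side by side on chromosome 23, in the order *BOLA-DQA2*, *BOLA-DQB*, *BOLA-DQA5*, *BOLA-DQB1* and a gene listed as LOC100848815 with the synonym BoLA-DQA1. Next to them lie the DR genes *BOLA-DRB3*, *BOLA-DRB2* and *BOLA-DRA*. Which of these genes the 2 rows of the deposited table stand for was not given there. Reads that matched several places, or that had over 2 mismatches, had been dropped by the authors, so the CPM of *HLA-DQA1* and *HLA-DQB1* count the reads that fit 1 copy of the reference closely, and both levels are uncertain. *IFI47* lies on chromosome 7, between *TRIM52* and *OR2BB11*.

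*HLA-DQA1*, the alpha chain gene, was plainly expressed in some cows of every diet and below 1 CPM in others. In AH it ran from 0.342 CPM through a median of 7.77 to 47.1 CPM, in CS from 0.326 through 2.80 to 49.7 CPM, and in RS from 0.210 through 39.3 to 62.7 CPM. The diets overlapped over almost their whole range, and a 138-fold to 299-fold distance separated the lowest from the highest cow within a diet. Sorted over the 18 cows, the values left a gap between 2.86 CPM, in the second CS cow, and 11.6 CPM, in the first CS cow. Above it stood 9 cows, 3 on AH, 2 on CS and 4 on RS, and below it the other 9.

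Reads were not lacking to tell these levels apart. The fifth RS cow, at the bottom, had 4 reads of *HLA-DQA1* (0.210 CPM, interval 0.0572 to 0.537), and the third RS cow, at the top, had 2021 reads (62.7 CPM, interval 60.0 to 65.5). Below the gap the cows were not all at 1 level. The second and the fifth CS cow had 46 and 57 reads, or 2.86 CPM (interval 2.09 to 3.81) and 2.73 CPM (interval 2.07 to 3.54), while the sixth AH cow had 7 reads, or 0.342 CPM (interval 0.137 to 0.704). The intervals of those CS cows did not meet that of the AH cow, so the low group itself held different levels beyond counting error. The fourth CS cow, with 1.03 CPM (interval 0.694 to 1.47), lay between them.

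**Figure D1:**
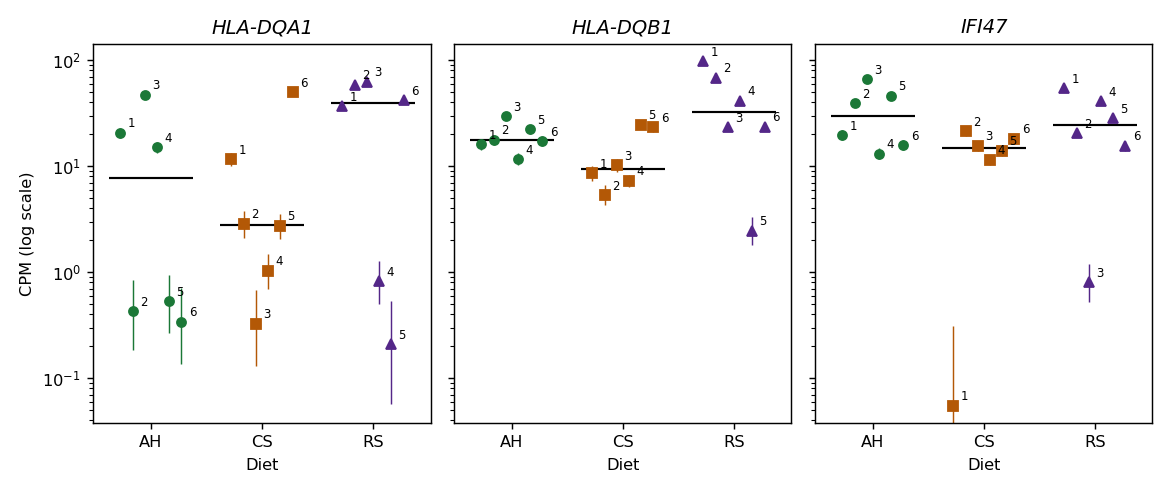
CPM on a log scale for *HLA-DQA1*, *HLA-DQB1* and *IFI47* in the 6 cows of each diet. Points are single cows with their number, vertical lines are exact Poisson intervals, which cover counting error only, and black bars are the medians of a diet. *HLA-DQA1* has cows near or below 1 CPM on every diet, *HLA-DQB1* spreads around its medians with 1 low RS cow, and *IFI47* is nearly absent in 1 CS and 1 RS cow.

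*HLA-DQB1*, the beta chain gene, was present in all cows and showed no such gap. It ran from 11.7 CPM through a median of 17.5 to 29.4 CPM in AH, from 5.34 through 9.37 to 24.6 CPM in CS, and from 2.47 through 32.5 to 97.7 CPM in RS. The spread was 2.53-fold in AH, 4.61-fold in CS and 39.6-fold in RS, where the highest and the lowest of all 18 cows were found. The fifth RS cow, with 47 reads, was the lowest for both chains, and the first RS cow, with 2665 reads, was the highest for the beta chain. The second highest cow, at 68.3 CPM, and the third, at 41.5 CPM, were also fed RS.

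*IFI47* was expressed at 11.5 CPM or more in 16 cows and nearly absent in 2. It ran from 13.1 CPM through a median of 29.4 to 65.7 CPM in AH, from 0.0551 through 14.8 to 21.4 CPM in CS, and from 0.806 through 24.3 to 54.5 CPM in RS. The first CS cow had a single read (0.0551 CPM, interval 0.00140 to 0.307), which is below the 3 reads that a count of 0 allows, and the third RS cow had 26 reads (0.806 CPM, interval 0.527 to 1.18). The other 16 cows had between 286 and 1945 reads and at least 11.5 CPM. Neither of the low cows was low for *HLA-DQA1*, which stood at 11.6 CPM in the first CS cow and at its highest value in the third RS cow. The library of the first CS cow had 18140063 reads on genes, within the range of the others, and that of the third RS cow, with 32252177, was the deepest of all.

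The size of such gaps was compared with that of all genes tested, on log2(CPM + 0.5). A gene was said to be split when its largest gap, with 3 or more cows on each side, was at least 1, a 2-fold step, and 158 of 13284 genes (1.19%) were. Of the 3 members, *HLA-DQA1* was split. Its gap of 1.85 was the 12th largest of all, and 0.0903% of the genes had one as large. The gaps of *HLA-DQB1* (0.49) and *IFI47* (0.47) were reached by 13.8% and 15.8% of the genes. When any number of cows could stand on a side, the gap of *IFI47* was 3.20, between 0.806 and 11.5 CPM, and only 5 of the 13284 genes had a larger one. That of *HLA-DQB1* was then 0.98, which 5.63% of the genes reached, and it set the fifth RS cow apart. The members were chosen for their ratios in these same cows, and 14 of 69 other genes chosen this way were also split. The ranks of the members among all genes are therefore a description.

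**Figure D2:**
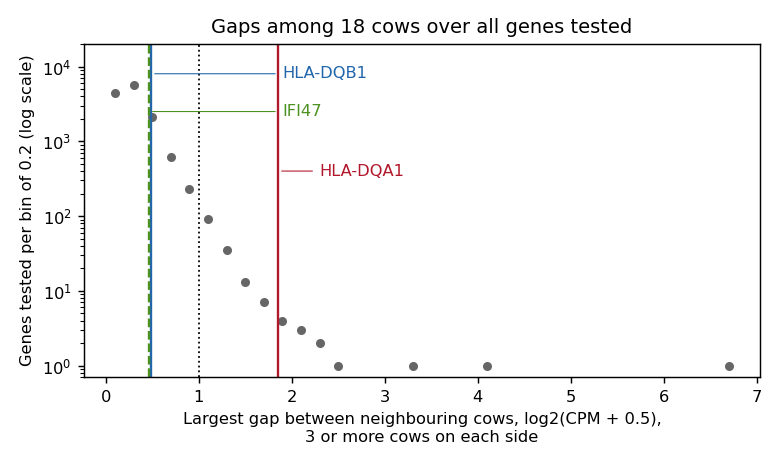
Largest gap between neighbouring cows, with 3 or more cows on each side, for the 13284 genes tested. The x axis is the gap on log2(CPM + 0.5), grey points are the number of genes in bins of 0.2 on a log scale, the dotted line is the gap of 1 that defines a split, and the coloured lines are the 3 members. *HLA-DQA1* (1.85) lies in the thin right tail, and *HLA-DQB1* (0.49) and *IFI47* (0.47, dashed) lie to the left of the dotted line.

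Other rows were searched for the same division of cows. None of the other 24615 rows had all 9 cows above the *HLA-DQA1* gap over the 9 below it, and none had them all under. A division of 9 against 9 cows is seldom matched by chance, so its absence from other rows does not set the gene apart. For the pair of cows nearly without *IFI47*, 52 rows were lowest in exactly these cows and 27 highest. None of these rows separated them by as much as 1 on the log2 scale, the widest steps being 0.51 in the direction of *IFI47* and 0.98 in the opposite one. Among the genes tested these rows numbered 50 and 4. Most of the rows highest in the pair had thus not passed the filter on low values. How many rows would single out a given pair of cows by chance was not computed, so these counts are a description.

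Over all 18 cows the 3 genes were of middle abundance and of high variability. Their mean CPM of 19.6 for *HLA-DQA1*, 25.0 for *HLA-DQB1* and 24.5 for *IFI47* stood at the 50.9th, 57.8th and 57.1st percentile of the genes tested. Levels are not compared between these genes, since CPM are not scaled to length. The standard deviation on the log2(CPM + 0.5) scale was 2.56, 1.22 and 1.74, against a median of 0.48 over all genes, which put them at the 99.98th, 98.4th and 99.6th percentile of variability. A choice by 2-fold ratios of means in these same cows favors genes that vary. The percentiles of variability are therefore a description and not a test.

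Diets were compared by the ratio of their arithmetic mean CPM, as in the paper. The mean of *HLA-DQA1* was 14.0 ± 18.4 CPM for AH, 11.4 ± 19.2 for CS and 33.5 ± 27.3 for RS (SD, n = 6 each). Both comparisons with RS had chosen the gene. In AH vs. RS its log2 ratio of means came to -1.26 ± 0.91 (SE), in RS vs. CS to 1.56 ± 1.10, and RS cows were higher in 23 of the 36 pairs of an RS and a CS cow. The ratio in RS vs. CS became 3.17 without the sixth CS cow, the only one on this diet above 11.6 CPM, and that in AH vs. RS became -2.18 without the third AH cow.

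For *HLA-DQB1* the means were 19.1 ± 6.10 CPM (AH), 13.2 ± 8.47 (CS) and 42.8 ± 34.8 (RS). The log2 ratios that chose it came to -1.17 ± 0.51 (SE) for AH vs. RS and 1.70 ± 0.61 for RS vs. CS. In 28 of 36 pairs the RS cow was above the CS cow. Without the first RS cow the ratio in AH vs. RS was -0.74.

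Mean *IFI47* was 33.2 ± 20.7 CPM with AH, 13.4 ± 7.40 with CS and 26.7 ± 19.0 with RS. It was chosen in AH vs. CS, where its log2 ratio came to 1.31 ± 0.49 (SE) and the AH cow was higher in 29 of 36 pairs. The highest CS cow (21.4 CPM) lay below the median of AH.

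In each of these comparisons the members lay among the genes with a mean ratio over 2-fold, as their choice requires. Of all genes tested, 0.941% were over 2-fold higher in AH vs. CS, 0.873% over 2-fold lower in AH vs. RS and 1.08% over 2-fold higher in RS vs. CS, with no test.

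The comparisons that had not chosen the genes were tested, by limma over all genes and by two-sided exact permutation tests of the mean CPM. For the HLA genes this was AH vs. CS, whose cows all took part in the comparisons with RS that chose them. The test is therefore not independent of the choice. *HLA-DQA1* did not pass in AH vs. CS (log2 ratio of means 0.30, standard error 1.26, exact permutation p = 0.755, adjusted p = 1.00 from limma). The direction rested on single cows, since the log2 ratio was -0.62 without the third AH cow and 1.91 without the sixth CS cow. *HLA-DQB1* did not pass either (log2 ratio 0.53, standard error 0.42, exact permutation p = 0.193, adjusted p = 1.00 from limma), with the AH cow higher in 26 of 36 pairs.

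*IFI47* was tested in the comparisons of RS, which share cows with the one that chose it. In AH vs. RS its log2 ratio was 0.32 (standard error 0.56, exact permutation p = 0.576, adjusted p = 1.00 from limma). In RS vs. CS it was 0.99 (standard error 0.53, exact permutation p = 0.152, adjusted p = 1.00 from limma), with the RS cow higher in 27 of 36 pairs. Without the third RS cow, in which *IFI47* was nearly absent, this ratio was 1.24 (exact permutation p = 0.0173, adjusted p = 1.00 from limma), and without the third AH cow that in AH vs. RS was 0.0033. On the log2(CPM + 0.5) scale, which gives cows with few reads more weight, the limma difference in RS vs. CS was 0.92 (standard error 0.86) with all cows and 0.10 without the first CS cow, and that in AH vs. RS was 0.71 (standard error 0.86) and -0.04 without the third RS cow. Adjusted over the 4 tests, the lowest p was 0.385.

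With limma 0 of the 2 HLA genes were called in AH vs. CS, where 1 of all genes tested (0.00753%) passed an adjusted p under 0.05 and a 2-fold ratio. *IFI47* was called in 0 of its 2 comparisons. Calls made up 0.00753% of all genes in AH vs. RS. They made up 0.0% for RS against CS, where 171 genes had an unadjusted p under 0.05 and edgeR and DESeq2 also called 0. Calls were thus rare for any gene of this table.

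The alpha and the beta chain were compared cow by cow. Since *HLA-DQA1* fell into separate groups of cows, the chains were not correlated across the gap. Among the 9 cows above it, Pearson's r of log2(CPM + 0.5) was 0.676 (exact permutation p = 0.0478) and Spearman's rho was 0.567 (exact permutation p = 0.121). Adjusted over the 17 relations computed, these p-values became 0.304 and 0.322. Both genes were chosen in comparisons with RS and were higher there on average, which can itself raise r over cows of mixed diets. The p-values do not allow for this. Without the 2 cows farthest from the median of *HLA-DQA1* r was 0.266, so the relation rested on them, and with values centred within diets it was 0.465 (exact permutation p = 0.203). Without the first RS cow r was 0.848 (exact permutation p = 0.00226), and without the first CS cow 0.529 (exact permutation p = 0.150). In the 9 cows below the gap r was 0.0992 (exact permutation p = 0.799) and rho 0.250 (exact permutation p = 0.521). Without the 2 cows farthest from the median it was 0.422, and without the fifth RS cow -0.240.

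The CPM of the alpha chain gene divided by that of the beta chain gene compares cows, not the genes, since lengths were not used. Where *HLA-DQA1* was above the gap, the ratio was between 1.29 and 2.68 in 7 cows of all 3 diets. On AH these were the first, the third and the fourth cow, at 1.29, 1.60 and 1.29. In CS they were the first and the sixth, at 1.35 and 2.14, and in RS the third and the sixth, at 2.68 and 1.79. The first and the second RS cow, which had the most *HLA-DQB1* of all, stood lower, at 0.374 and 0.858. Below the gap the ratio ran from 0.0197, in the fourth RS cow, to 0.535, in the second CS cow. The fourth RS cow had 1013 reads of *HLA-DQB1* (41.5 CPM, the third highest of the 18 cows) and 20 of *HLA-DQA1* (0.819 CPM). The sixth AH cow had nearly the same ratio, at 0.0198. Since each row counts the reads that fit 1 copy of the reference, a low ratio does not show that a chain was missing.

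**Figure D3:**
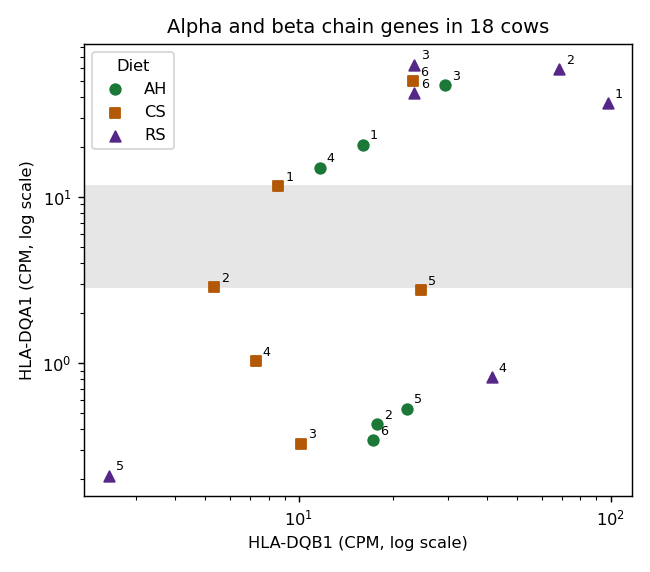
*HLA-DQA1* against *HLA-DQB1* in CPM, both on log scales, for the 18 cows, with the number of each cow and its diet by colour and shape. The grey band is the empty stretch of *HLA-DQA1* between 2.86 and 11.6 CPM. Cows with about 20 CPM of *HLA-DQB1* stand both above and below the band.

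*IFI47* followed neither chain beyond the spread between cows. With *HLA-DQB1* over the 18 cows r was 0.271 (permutation p = 0.272) and rho 0.368 (permutation p = 0.133), and r was 0.395 without the 2 cows farthest from the median of *IFI47*. With *HLA-DQA1* above the gap r was 0.349 (exact permutation p = 0.359) and rho 0.250 (exact permutation p = 0.521), and r was 0.362 without the farthest 2 cows. Below the gap r was -0.309 (exact permutation p = 0.409) and rho -0.200 (exact permutation p = 0.613), and r was -0.325 without the farthest 2 cows but 0.341 with values centred within diets. The adjusted p of these relations was between 0.322 and 0.827.

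Of the prepared marker lists, a symbol was at hand for 1 of 17 myeloid genes, *AIF1*, and 1 of 7 B lineage genes, *CR2*, both from the list that the study chose on these cows. *AIF1* ran from 6.84 to 43.4 CPM over the 18 cows and *CR2* from 0.0459 to 75.7 CPM. For *HLA-DQB1* and *AIF1* r was -0.00238 (permutation p = 0.992) and rho 0.00929 (permutation p = 0.974), and for *HLA-DQB1* and *CR2* r was 0.284 (permutation p = 0.252) and rho 0.410 (permutation p = 0.0920). For *IFI47* and *AIF1* r was -0.196 (permutation p = 0.437) and rho -0.158 (permutation p = 0.532), and for *IFI47* and *CR2* r was 0.0526 (permutation p = 0.840) and rho 0.121 (permutation p = 0.632). Without the 2 cows farthest from the median of the member these 4 r were 0.0920, 0.425, 0.168 and 0.276. Other immune genes with a symbol, outside the prepared lists and chosen after their values were seen, differed in their rho with *HLA-DQB1* over the 18 cows. It was 0.552 for *IGLL1*, an immunoglobulin lambda-like gene, 0.424 for *Cd209f*, a lectin gene, and 0.344 for *CD5L*, a macrophage gene. Within diets these were 0.385, 0.174 and 0.158. For *RGS1* and *ADAM28*, also genes of immune cells, it was -0.129 and -0.129 (0.051 and 0.088 within diets). *S100A8* and *S100A9* were abundant in every cow, at 2052 to 10792 and 161 to 2420 CPM, and are not read here as markers of immune cells. Their rho with *HLA-DQB1* was -0.028 and 0.197 (-0.253 and 0.331 within diets).

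Above its gap *HLA-DQA1* had an r of 0.459 (exact permutation p = 0.205) and a rho of 0.317 (exact permutation p = 0.410) with *AIF1*. Without the farthest 2 cows r was 0.962, so this value turned on them. With *CR2* r was 0.662 (exact permutation p = 0.0567) and rho 0.717 (exact permutation p = 0.0369), the adjusted p were 0.304 and 0.283, and r was 0.370 without the farthest 2 cows and 0.793 with values centred within diets (exact permutation p = 0.0136). Below the gap r with *AIF1* was 0.549 (exact permutation p = 0.119), rho 0.650 (exact permutation p = 0.0666) and r without the farthest 2 cows 0.434. With *CR2* r was 0.112 there (exact permutation p = 0.763), rho 0 (exact permutation p = 1) and r without the farthest 2 cows 0.470. Cows with about the same *CR2* stood on both sides of the gap, such as the first RS cow (0.550 CPM of *CR2*, 36.6 of *HLA-DQA1*) and the second CS cow (0.559 and 2.86). The part of either cell type in the levels of the members was not tested.

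The relation of depth with the beta chain did not pass adjustment. The r of *HLA-DQB1* with the log10 of the reads on genes was 0.479 (permutation p = 0.0443) and rho 0.552 (permutation p = 0.0191), which became 0.304 and 0.283 when adjusted. The r was 0.390 without the 2 cows farthest from the median and 0.371 with values centred within diets. RS libraries had 19059955 to 32252177 reads and CS libraries 16099131 to 29184724. The part of depth in the level of *HLA-DQB1* was not tested. Above its gap *HLA-DQA1* had an r of 0.633 (exact permutation p = 0.0716) and a rho of 0.650 (exact permutation p = 0.0666) with depth, and an r of 0.606 without the farthest 2 cows. Below the gap r was -0.130 (exact permutation p = 0.733) and rho 0.0833 (exact permutation p = 0.843), but r was 0.877 without the farthest 2 cows. For *IFI47* over all cows r was -0.00856 (permutation p = 0.975), rho 0.00722 (permutation p = 0.980) and r without the farthest 2 cows 0.241.

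Genes with a pattern like that of a member were ranked by rho over the 18 cows, as a description, since the cows share libraries and diets. For *HLA-DQA1* this rho is taken across its gap, so it serves only to order genes and not to measure a relation. The 5 genes most like *HLA-DQA1* had a rho of 0.643 to 0.725, those most like *HLA-DQB1* 0.752 to 0.814 and those most like *IFI47* 0.674 to 0.738. None of these 15 had a symbol. The first were ENSBTAG00000012941 for *HLA-DQA1* (19.1 to 33.6 CPM) and ENSBTAG00000016319 for *HLA-DQB1* (2.92 to 14.4 CPM). Both had a much narrower range than the member they resembled.

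Among 69 other genes with a symbol, which the study chose on these cows, those highest in the order for *HLA-DQA1* were *CFB*, which encodes complement factor B (rho 0.538, rank 37 of all genes, 0.366 within diets), the transglutaminase gene *TGM2* (0.496, and 0.356 within diets) and the complement gene *C2* (0.447, and 0.315 within diets). *CFB* and *C2* are neighbours on chromosome 23, the chromosome of the DQ genes. For *HLA-DQB1* the 5 highest were *TGM2* (0.697, rank 33, 0.424 within diets), the complement gene *C3* (0.600, and 0.401 within diets), *CRISPLD2* (0.598, and 0.420 within diets), *RCN1* (0.593, and 0.420 within diets) and *SERPINF1* (0.581, and 0.498 within diets). The complement genes did not behave as 1 group. *CFB* had a rho of 0.284 with *HLA-DQB1* (0.032 within diets), and *C7* had one of -0.0836 with *HLA-DQA1* and of 0.352 with *HLA-DQB1*. The highest for *IFI47* was *IGLL1*, with 0.482 (rank 138, 0.515 within diets).

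Over all genes tested, the 5 most opposite genes had no symbol, with a rho of -0.765 to -0.715 for *HLA-DQA1* and of -0.773 to -0.697 for *HLA-DQB1*. Among the 69 genes with a symbol, the lowest for *HLA-DQB1* were the chaperone genes *HSPB8* (-0.686, -0.476 within diets) and *DNAJA1* (-0.589, -0.406 within diets), and for *HLA-DQA1* they were *HSPA1A* (-0.593, -0.507 within diets) and *DNAJA1* (-0.562, -0.437 within diets). For *IFI47* the rho of *HSPA1A* was 0.311 (0.160 within diets) and that of *HSPH1* 0.247 (0.079 within diets). With *HSPB8*, *BAG3* and *DNAJA1* its rho was 0.036, 0.030 and -0.065 (-0.069, -0.071 and -0.255 within diets). The cows with the highest level of the co-chaperone gene *BAG3*, the second CS cow (1077 CPM) and the fifth RS cow (783 CPM), were those with the least *HLA-DQB1*, at 5.34 and 2.47 CPM. Without both cows the log2 ratio of *HLA-DQB1* was 1.78 in RS vs. CS and -1.42 in AH vs. RS, and no sign changed for any member. The part of heat shock in these levels was not tested.

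**Figure D4:**
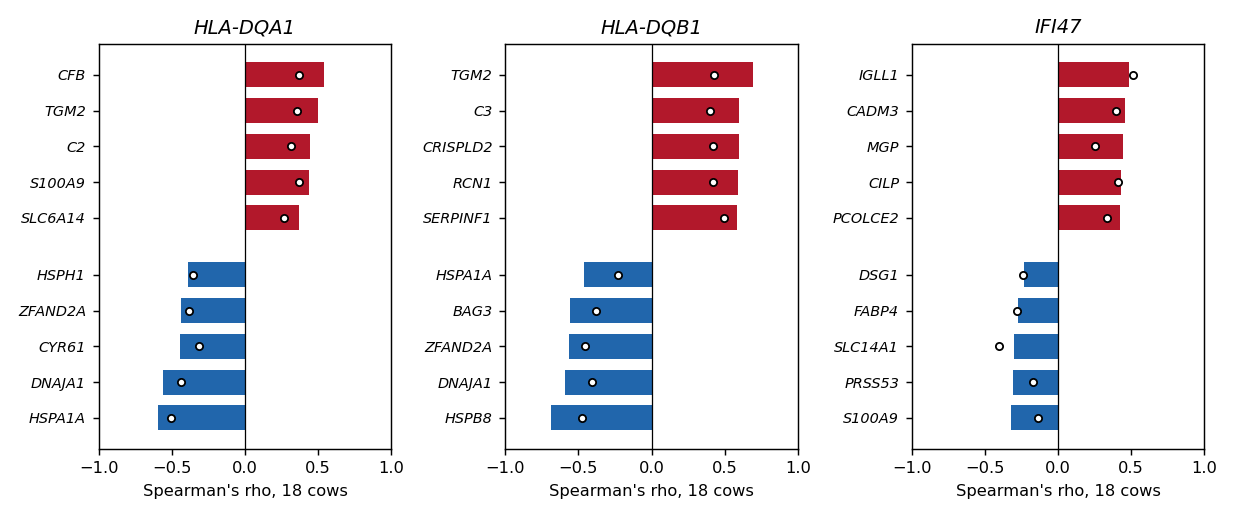
Spearman's rho over 18 cows between each member and the 5 most alike and 5 most opposite of 69 other genes with a symbol. Bars are rho of log2(CPM + 0.5), and open circles are the same after centring the values within diets. For *HLA-DQA1* rho is taken across its gap and only orders the genes. *CFB* (0.538) and *TGM2* (0.697) have the longest upper bars of the HLA genes, and the longest bar of *IFI47* in each direction is shorter than that of either HLA gene.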

How the data were processed

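RNA of rumen papillae of 18 cows, 6 per diet, was sequenced on an Illumina system. Alignment by the authors was to UMD3.1, with TopHat2. HTSeq gave the reads of each Ensembl gene after those with over 2 mismatches or more than 1 match were dropped. The authors deposited these values as CPM, scaled to the sum over genes within a cow. No batch was named, and tool versions are not given in the sources used here. The labels' extraction text speaks of another tissue and kit than the paper, whose account was followed.

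At a tolerance of 0.02, 100% of values above 0 were whole reads. Within diets, the chi-square per degree of freedom was 42.7 or more over 45 pairs of cows, so no cows were merged. For comparisons of diets, limma 3.58.1 (R 4.3.3) was fitted to log2(CPM + 0.5), with a term per diet, an intensity trend and Benjamini-Hochberg adjustment over 13284 genes, and a call needed a ratio of mean CPM over 2-fold. Fold changes on this scale understate changes of genes with few reads. Single values were compared by exact permutation tests and correlations by permutation tests (exact at 9 cows, 100000 resamples at 18). Alternatives used edgeR 4.0.16 and DESeq2 1.42.0 on the recovered reads, other pseudocounts, filters and scaling, and a replicate block, and each cow was left out in turn. Tables and plots were made with Python 3.11.15.

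The members and lists were chosen with earlier results of these data known. Named genes were the members, listed pathway genes with a symbol, genes with the highest rho to a member and genes called, of which those without a symbol are not listed. The most opposite genes, *BAG3* and likeness among the genes with a symbol were chosen after values had been seen. The prepared lists were class II presentation (0 of 20 genes with a symbol), class I presentation (0 of 12), interferon gamma response (0 of 20), type I interferon response (0 of 37), myeloid (1 of 17), B lineage (1 of 7), T cell (0 of 7), squamous epithelium (0 of 9) and stroma markers (0 of 9), so no list was tested. Of the genes with a symbol, 1 was left out and is not reported here.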

Additional observations from a re-analysis of the deposited data

Results flagged for a closer look

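*HLA-DQA1* in the sixth CS cow was far above the other cows of its diet. It had 49.7 CPM, and its distance to the next CS cow, at 11.6 CPM, took 0.771 of the whole range of the diet, over the critical value of Dixon's test for 6 samples. For normally distributed values chance passes it in about 1 of 20 groups, and 9 groups were examined. The CPM of this gene fell into groups split by a gap, so that rate need not hold here. Over all diets the value of this cow lay within the range above the gap, 11.6 to 62.7 CPM. The same cow had 23.2 CPM of *HLA-DQB1* and 18.1 CPM of *IFI47*, both within the range of its diet.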

How the results depend on the processing

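The number of genes called depended on the test and on single cows. In AH vs. CS it was 1, 0 with only the 12 cows compared, 5 with DESeq2, and 1 to 2 with single cows left out. In AH vs. RS it was 1, 7 with DESeq2, 2 with a replicate block, and 1 to 5 with single cows left out, the most without the sixth RS cow. In RS vs. CS it was 0, 1 without a filter on low values, and 0 to 6 with single cows left out, the most again without the sixth RS cow. The replicate numbers are not stated to pair cows, same-numbered cows had correlations of their deviations from -0.484 to 0.712, and 5 of 18 cows correlated best with one of their own number, so the block was not used. The log2 ratio of *HLA-DQA1* in AH vs. CS ran from -0.62 to 1.91 with single cows left out, and that of *IFI47* in RS vs. CS from 0.65 to 1.24. Neither the ratio of medians nor TMM scaling turned the sign of any of the 9 ratios of the members, and with a pseudocount of 0.1 the limma difference of *HLA-DQA1* in AH vs. CS was -0.02 in place of 0.10. The r of the chains above the gap was 0.645 with TMM scaling, 0.465 with values centred within diets, and 0.529 to 0.848 with single cows left out. Below the gap it ran from -0.240 to 0.442. Split genes numbered 23 at a gap of 1.5, 9 at a gap of 2, 295 with a pseudocount of 0.1 and 104 with 1, and the gap of *HLA-DQA1* was 1.99 and 1.71 with these pseudocounts. Among relations within the spread, r turned to 0.0157 for *IFI47* with depth at a pseudocount of 0.1, to -0.0016 for *IFI47* with *CR2* under TMM scaling, and, with values centred within diets, to 0.341 for *IFI47* with *HLA-DQA1* below the gap, 0.0356 for *HLA-DQB1* with *AIF1* and 0.113 for *IFI47* with *AIF1*. The cause of these changes was not tested. Pathway lists gave no value, since their genes had no symbol. Few reads lay behind *HLA-DQA1* below the gap, where 4 to 57 were counted, and behind *IFI47* in the first CS cow, where 1 was. Counting error is therefore large for the lowest of these levels.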

Other observations

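Of 69 other genes with a symbol, 14 were split over the 18 cows, against 1.19% of all genes tested, and the study chose them on these cows for their ratios. The widest gap among them was that of the mitochondrial gene *MT-ATP8* (6.62 on the log2 scale, with 12 cows below it), followed by *CRISP3* (1.81, with 3 cows below it) and the antimicrobial peptide gene *TAP* (1.75, with 3 cows below it). With these numbers of cows below, none of the 3 could divide the cows as *HLA-DQA1* did, with 9 below.

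The third AH cow was the highest of its diet for all 3 members, with 47.1 CPM of *HLA-DQA1*, 29.4 of *HLA-DQB1* and 65.7 of *IFI47*. This cow also had the most *CR2* of all 18 cows (75.7 CPM). The third RS cow came next for *CR2* (67.1 CPM). It had the most *HLA-DQA1* (62.7 CPM) but 23.3 CPM of *HLA-DQB1* and 0.806 of *IFI47*.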
